A study of Mus musculus with 6 samples.

Results

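Trimethylation and dimethylation of histone H3 at lysine 79 (H3K79me3 and H3K79me2) were compared gene by gene in mouse hematopoietic progenitor cells expressing the leukemia fusion protein MLL-AF9 in its D546R form. The genes compared were all those whose read counts summed to 200 or more over the 2 D546R libraries, which were 10117 of the 24012 genes in the table. The progenitors came from mouse bone marrow and were transduced with a retrovirus that expressed MLL-AF9 as wildtype (WT), D544R or D546R, so cells of all 3 genotypes carried the fusion and none served as a control without it. Chromatin immunoprecipitation and sequencing (ChIP-seq) gave 1 library for each mark in each genotype, 6 in all, with an antibody from Abcam for H3K79me2 and one from Diagenode for H3K79me3. The sources used here do not give the strain, the age, the promoter of the retrovirus or the number of animals. The D544R and WT pairs of libraries were handled in the same way and are used only to show where D546R differed. There were no replicates, so no test between groups was possible and no error between cultures is known.

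H3K79 is methylated by DOT1L, the enzyme known for marking the transcribed bodies of active genes. DOT1L adds methyl groups step by step, so a nucleosome that carries the trimethyl mark has passed through the dimethyl mark. AF9, the partner of MLL in this fusion, binds DOT1L directly, and leukemias with MLL fusions are known for H3K79 methylation over fusion targets such as the HOXA genes and Meis1. The letters D546R denote an exchange of aspartate for arginine in the fusion.

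The D546R libraries held 6652571 counts in H3K79me3 and 3558329 in H3K79me2, which were the highest and lowest totals of the 6. In H3K79me3 2203 genes were at 0, and in H3K79me2 795 were. The share of regions under 5 kb with no count was 33.5% in H3K79me3 and 13.0% in H3K79me2, which implied up to 18.6 reads per independent fragment in the first library and 4.78 in the second. In the other 2 genotypes the same estimate was 8.12 and 9.73 for H3K79me3 and 3.26 and 4.05 for H3K79me2. Each log2 ratio below is normalised H3K79me3 over normalised H3K79me2 counts, with the median ratio of all genes counted in both libraries, 2.20, set to no difference. Its interval, called a fragment interval, is the 95% interval of the ratio after dividing counts by the reads per fragment. It covers counting error and not variation between cultures. As the antibodies differ, a ratio of 0 on the log2 scale does not mean equal amounts of the 2 marks, only the ratio of the typical gene.

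H3K79me3 was at least 2-fold higher relative to H3K79me2, with a fragment interval that excluded no difference, at 829 of the 10117 genes (8.19%), and at least 2-fold lower at 1863 (18.4%). The WT pair gave 6.43% higher and 5.6% lower of 10611 genes, and the D544R pair 7.55% and 9.4% of 9545. The log2 ratios in D546R had a standard deviation across genes of 0.95, against 0.69 in WT and 0.75 in D544R. At genes with 2000 or more summed counts it was 0.84 in D546R, 0.54 in WT and 0.71 in D544R. Counting error is part of this spread, and the D546R H3K79me3 library had the most reads per fragment. No gene of the 10117 was at 0 in either library, and together they held 90.3% of the H3K79me3 and 91.1% of the H3K79me2 counts. Of them 3901 (38.6%) had a region overlapping that of another gene and so shared reads with it. Genes just inside the threshold, with 200 to 209 summed counts, had a median log2 ratio of 0.04 (280 genes), and the 283 just outside, with 190 to 199, had 0.08. Scaling by total counts moved every log2 ratio by 0.23, and it turned the balance to 1492 higher and 1134 lower. Scaling to olfactory receptor genes moved them by -0.66 and gave 105 and 3973. These scalings leave the order of genes as it is, so the results are best read relative to the median of all 10117 genes, -0.07.

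**Figure D1:**
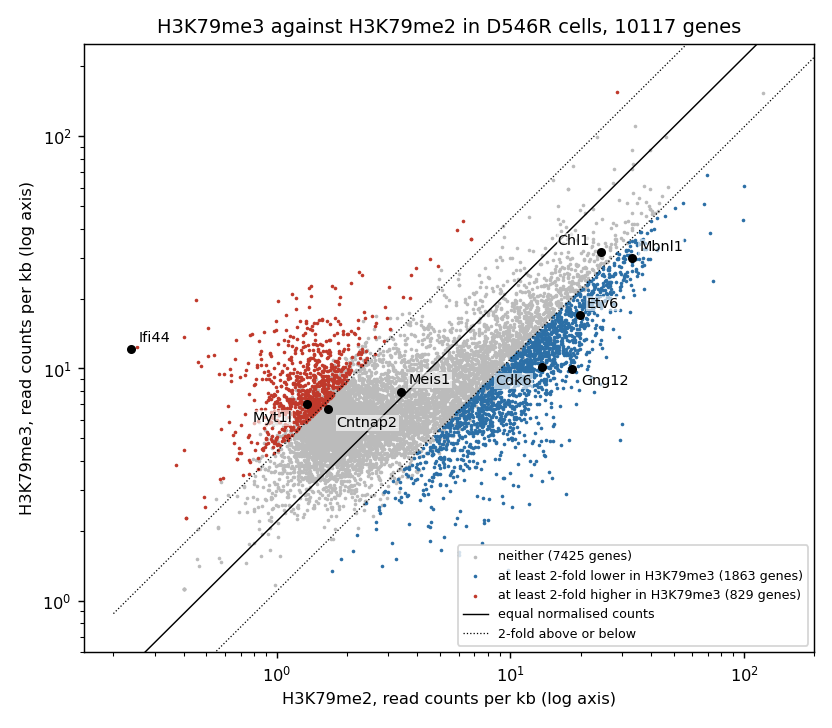
H3K79me3 against H3K79me2 counts per kb (log axes) for the 10117 genes in D546R cells, 1 point a gene; the solid line marks equal normalised counts and the dotted lines a 2-fold difference. Genes 2-fold lower in H3K79me3 (1863, blue) lie at high H3K79me2 density and those 2-fold higher (829, red) at low density; the empty lower left corner is the minimum of 200 summed counts.

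Among the 1051 genes with 2000 or more summed counts, where counting error is smallest, 306 were 2-fold lower in H3K79me3 and 16 higher. WT had 17 lower and 9 higher of 1317 such genes. The promoters of 3 of the 4 lowest and of the 3 highest of these genes are shown because the ratio went with the number of CG dinucleotides in the promoter across all genes, and the promoter of Meis1 because it is the classical target of the fusion. The sequences come from RefSeq (build GRCm38.p6), run from 250 bases before to 50 after the transcription start on the gene's strand, and have every CG in capitals. Where a gene had several starts, the one with the most CG is shown. Gng12, Shoc2 and Gpr141 stood at the low end and Myt1l, Ulk4 and Ano4 at the high end.
Gng12 (chr6:66896641-66896940, plus strand): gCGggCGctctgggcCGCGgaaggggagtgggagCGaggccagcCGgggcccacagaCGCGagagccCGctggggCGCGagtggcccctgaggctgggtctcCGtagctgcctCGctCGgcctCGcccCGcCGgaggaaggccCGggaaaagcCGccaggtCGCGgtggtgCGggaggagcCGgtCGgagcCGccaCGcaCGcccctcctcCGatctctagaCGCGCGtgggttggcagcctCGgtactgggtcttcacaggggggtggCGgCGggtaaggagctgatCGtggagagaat
Shoc2 (chr19:53944626-53944925, plus strand): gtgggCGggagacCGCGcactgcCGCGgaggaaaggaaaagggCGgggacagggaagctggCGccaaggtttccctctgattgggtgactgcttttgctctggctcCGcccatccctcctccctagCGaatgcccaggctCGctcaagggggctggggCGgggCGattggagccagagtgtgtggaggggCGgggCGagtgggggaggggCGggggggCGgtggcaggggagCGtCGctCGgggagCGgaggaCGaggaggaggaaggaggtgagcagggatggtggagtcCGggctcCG
Gpr141 (chr13:19824208-19824507, minus strand): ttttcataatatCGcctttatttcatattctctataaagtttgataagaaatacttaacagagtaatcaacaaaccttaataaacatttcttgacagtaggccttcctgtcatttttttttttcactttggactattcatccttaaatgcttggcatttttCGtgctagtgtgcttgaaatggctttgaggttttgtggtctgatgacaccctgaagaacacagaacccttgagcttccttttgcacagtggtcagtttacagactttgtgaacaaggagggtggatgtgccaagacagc
Myt1l (chr12:29534972-29535271, plus strand): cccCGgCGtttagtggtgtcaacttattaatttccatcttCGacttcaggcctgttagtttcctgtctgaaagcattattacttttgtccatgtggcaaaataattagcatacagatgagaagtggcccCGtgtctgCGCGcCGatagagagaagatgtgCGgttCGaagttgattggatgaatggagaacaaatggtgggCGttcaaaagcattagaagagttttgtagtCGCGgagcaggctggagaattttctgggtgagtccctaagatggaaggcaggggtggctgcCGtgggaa
Ulk4 (chr9:121277123-121277422, minus strand): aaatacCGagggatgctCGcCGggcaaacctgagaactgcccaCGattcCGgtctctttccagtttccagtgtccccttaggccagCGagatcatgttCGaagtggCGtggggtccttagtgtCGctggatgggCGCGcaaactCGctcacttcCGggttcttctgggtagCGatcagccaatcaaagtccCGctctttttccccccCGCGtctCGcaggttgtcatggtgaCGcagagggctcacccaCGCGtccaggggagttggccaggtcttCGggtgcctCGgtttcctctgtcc
Ano4 (chr10:89257741-89258040, minus strand): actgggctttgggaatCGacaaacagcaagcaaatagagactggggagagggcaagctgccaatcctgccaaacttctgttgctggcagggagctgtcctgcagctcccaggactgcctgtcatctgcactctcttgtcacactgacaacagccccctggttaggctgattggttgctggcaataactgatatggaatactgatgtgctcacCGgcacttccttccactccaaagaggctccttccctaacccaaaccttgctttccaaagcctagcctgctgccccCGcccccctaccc
Meis1 (chr11:19018920-19019219, minus strand): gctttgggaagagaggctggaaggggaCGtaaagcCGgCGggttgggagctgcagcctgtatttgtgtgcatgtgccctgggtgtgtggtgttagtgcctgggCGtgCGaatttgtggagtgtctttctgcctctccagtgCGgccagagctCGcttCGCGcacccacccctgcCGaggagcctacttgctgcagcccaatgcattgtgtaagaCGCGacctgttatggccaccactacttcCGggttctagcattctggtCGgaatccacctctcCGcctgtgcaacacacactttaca
The windows hold 35, 23 and 2 CG in the 3 genes of low ratio, 13, 23 and 3 in the 3 of highest ratio, and 15 in Meis1. Both ends thus include a promoter rich in CG and a poor one. Among all 32851 RefSeq promoters of this length 94.6% hold a CG and 43.5% hold 10 or more.

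Gng12, which encodes a gamma subunit of heterotrimeric G proteins (NM_025278, mm9 chromosome 6, 66844390 to 66971355), had 1264 counts in H3K79me3 and 2330 in H3K79me2. Its log2 ratio of -2.02 (fragment interval -2.41 to -1.65) was the lowest of the genes with 2000 or more counts. The same gene stood at -0.92 in WT and -0.97 in D544R. Shoc2, a scaffold of RAS signalling, had 822 and 1374 counts and a log2 ratio of -1.88 (-2.37 to -1.42). Nr3c1, the glucocorticoid receptor gene, stood between them at -1.93, and below the first 3 came the orphan receptor gene Gpr141 at -1.79, the calcium sensor gene Stim2 at -1.77 and the kinase gene Dyrk1a at -1.75 (-2.04 to -1.47). Atf7ip, Zfp292, Cnot2, Fbxo11, Nr2c2 and Rsbn1l completed the 12 lowest, from -1.77 to -1.70. All 12 belonged to the 10% of the genes with the densest H3K79me2 in WT, and in WT none of the 12 was 2-fold lower.

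At the other end of the genes with 2000 or more summed counts stood long genes of the nervous system and other tissues. At the counts per kb given below, only a long region reaches that minimum. Their length thus follows from the minimum and is not shown to go with a high ratio. Myt1l, a neuronal transcription factor gene (NM_001093775, mm9 chromosome 12, 30211248 to 30608074), had 2798 counts in H3K79me3 and 533 in H3K79me2, a log2 ratio of 1.26 (0.89 to 1.62). It stood at 0.48 in WT and 0.63 in D544R. Ulk4 followed at 1.24, with 1719 and 331 counts, then the anoctamin gene Ano4 at 1.17 and the laminin gene Lama3 at 1.15. The potassium channel genes Kcnh1 and Kcnh5 both stood at 1.06, and the channel partner gene Kcnip1 at 1.12. The 12 highest ran from 1.03 (Myo16) to 1.26, and their H3K79me2 density in D546R lay between 1.05 (Ulk4) and 1.64 (Kcnh5) counts per kb. That is below the 1.89 counts per kb of the 1102 olfactory receptor genes, which are silent outside the nose, summed. In H3K79me3 the same 12 genes lay between 5.11 (Kcnh1) and 7.57 (Kcnh5) counts per kb, against 6.54 for the olfactory receptor genes. As these genes were chosen for a high ratio, their low H3K79me2 beside such H3K79me3 levels largely follows from the choice.

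The most extreme ratios of all belonged to genes with few counts. Ifi44, an interferon-induced gene, had 254 counts in H3K79me3 and 5 in H3K79me2, and its log2 ratio of 4.40 had a fragment interval of 1.85 to 9.74. Gosr2, a Golgi transport gene, had 31 and 224 counts and a ratio of -3.97 (-7.53 to -1.91). The chemokine receptor gene Cxcr4 stood at -3.69 with 30 and 179 counts, and Fdps, an enzyme gene of isoprenoid synthesis, at -3.70 with 30 and 180. These intervals span several log2 units, so the order among such genes is not resolved. Ugt2b5, Tctex1d1, Bpi, Miat, Gpr26, Lad1, Il21, Sgcb and Gabrq made up the rest of the 10 highest, each with 13 or fewer H3K79me2 counts. Such genes passed the minimum of 200 mainly through their H3K79me3 counts.

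The ratio went with the density of H3K79me2 more than with region length, promoter CG content or chromosome. The 10117 genes were placed in 10 groups of equal size (deciles) by their H3K79me2 counts per kb in WT, a library that is not part of the D546R ratio. It measures the same mark as the denominator, so an inverse order is partly built in. Region length, CG content and chromosome are not terms of the ratio, so their rank below density is partly built in too. In the sparsest decile the median log2 ratio was 0.70, and in the densest it was -1.18. The share of genes called 2-fold lower went from 0.198% in the sparsest decile to 64.5% in the densest, and the share called higher from 24.9% to 0.0988%. In D546R itself the median H3K79me2 density went from 1.47 to 18.3 counts per kb between those deciles, while the median H3K79me3 density went from 5.28 to 18.5. In the first 5 deciles H3K79me3 moved only between 5.28 and 6.13 counts per kb. The share called higher also went with short regions. Within the 3 sparsest deciles it was 61.9% for genes of 10 to 20 kb, whose median sum of 222 lay close to the minimum. For genes of 400 kb or more it was 0.862%. The part of the minimum in the share called higher was not tested. Taking all 24012 genes without a minimum count and pooling the counts of each decile gave 0.60 in the sparsest and -1.15 in the densest, so the order was present without the minimum as well.

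**Figure D2:**
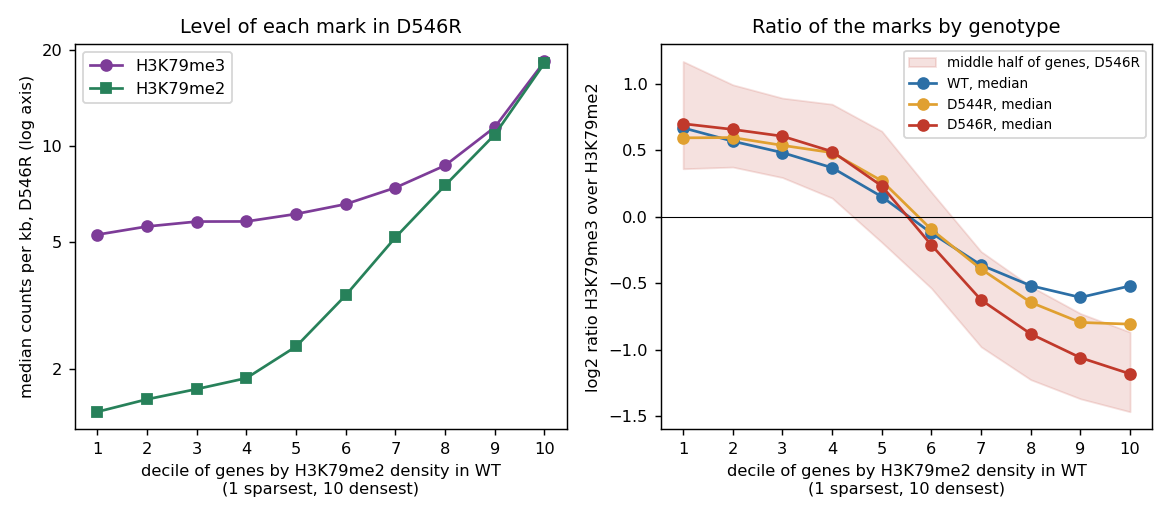
Left, median counts per kb of both marks in D546R (log axis) in deciles of the 10117 genes by H3K79me2 density in WT; right, median log2 ratio of H3K79me3 over H3K79me2 in each decile for the 3 genotypes, with the 25th to 75th percentile of D546R shaded. The medians of D546R go from 0.70 to -1.18, and in the densest decile D546R lies below D544R (-0.81) and WT (-0.52).

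The same order was present in the other genotypes but was steeper in D546R. Between the densest and sparsest decile the median log2 ratio differed by -1.88 in D546R, -1.40 in D544R and -1.19 in WT. Ordering the same genes by D544R in place of WT gave -1.83, -1.57 and -1.11. The WT ratio shares a library with the first ordering and the D544R ratio with the second, which steepens those values. Among these genes the 3 genotypes were close in the sparsest decile (0.70, 0.59 and 0.67 for D546R, D544R and WT). They were apart in the densest decile (-1.18, -0.81 and -0.52). These genes were chosen by their D546R counts alone. Over all genes without a minimum, the pooled log2 ratio of the sparsest decile was 0.60 in D546R and 0.91 in WT. In the densest decile it was -1.15 and -0.51. The closeness of D546R and WT in the sparsest decile was thus not seen over all genes, where that decile is another set: 153 of its 2402 genes were measured. It was also picked by low WT H3K79me2, the denominator of the WT ratio, which raises the WT value. The part of the minimum in this change was not tested. No test of these differences between genotypes was possible.

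The genotypes differed more in the distribution of H3K79me3 than in that of H3K79me2. Pooled H3K79me2 counts per kb were 13.8 times as high in the densest as in the sparsest decile in D546R, 13.7 times in D544R and 14.3 times in WT. For H3K79me3 the contrast was 3.94 in D546R, 5.06 in D544R and 6.53 in WT. The densest decile of genes took 11.9% of the H3K79me3 counts of these genes in D546R, 14.3% in D544R and 17.1% in WT, from 4.42% of their length. In H3K79me2 it took 22.5%, 23.8% and 23.4%. The D546R H3K79me3 library was also the one with the most reads per fragment, and the part of library quality in this contrast was not tested.

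**Figure D3:**
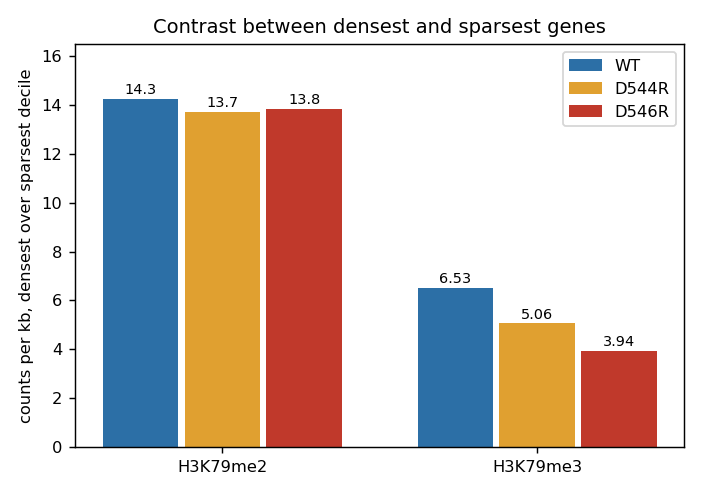
Pooled counts per kb of the densest decile of the 10117 genes divided by those of the sparsest decile, by mark and genotype, 1 library per bar and so no error bar. The 3 bars of H3K79me2 stand between 13.7 and 14.3, and those of H3K79me3 go from 6.53 in WT to 3.94 in D546R.

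Region length went with the ratio too, but in another order within parts of the density range. The median log2 ratio was -0.59 for the 297 genes under 10 kb and 0.54 for the 302 of 400 kb or more. Within the 3 densest deciles the bins of 10 kb to 400 kb lay between -1.01 and -1.12, and the 266 genes under 10 kb at -0.71. Within the 3 sparsest deciles the order was the opposite of that over all genes: the median was 1.82 for genes of 10 to 20 kb (97 genes), 0.81 for those of 20 to 50 kb (943 genes, the most of any bin there) and between 0.58 and 0.61 for genes of 50 kb or more. Short genes in these deciles had few counts, with a median sum of 222 in the bin of 10 to 20 kb and 273 in that of 20 to 50 kb, close to the minimum of 200, and the part of the minimum in these medians was not tested. The median differed little between chromosomes, from -0.31 on chromosome 11 to 0.11 on the X chromosome. Chromosome 11 had the shortest regions, with a median of 39.5 kb, and the X chromosome the longest at 74.3 kb. Long noncoding RNA genes had a median of 0.54 (454 genes) and protein coding genes -0.13 (9011 genes).

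CG content of the promoter followed the same line. RefSeq promoters were matched to 7944 (81.4%) of the 9764 genes outside chromosome 18. Genes with 0 to 4 CG in the window of 300 bases had a median log2 ratio of 0.58 (942 genes), those with 15 to 19 had -0.17 (987), and those with 30 or more had -0.56 (2142). The difference was smaller within each part of the density range. Within the 5 sparsest deciles the medians went from 0.69 to 0.46 over the same bins, and within the 5 densest from -0.54 to -0.94. Density still varied within these parts. From the lowest to the highest CG bin, median H3K79me2 in D546R went from 1.72 to 1.80 counts per kb in the sparse part and from 6.01 to 8.66 in the dense part. Genes with promoters poor in CG thus had higher medians than CG-rich ones in both parts of the density range, although single genes such as Gpr141 and Ulk4 above went the other way.

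Gene groups are described by how many measured genes were 2-fold higher or lower by the rule above and by their medians, beside the 8.19% higher, 18.4% lower and median of -0.07 over all genes. Since the minimum count can favour one direction in short genes, the log2 ratio of counts pooled over every listed gene, measured or not, is given as well. As the ratio went with H3K79me2 density, the medians of the main lists are also set beside a density reference. This is the median over a list's measured genes of the median ratio of their decile. Genes of the H3K79 machinery had low ratios, at the level of other genes of their density. Of 32 DOT1L and elongation complex genes 25 were measured, 0 were higher and 11 lower, with a median of -0.88, a density reference of -0.88 and a pooled value of -0.83 over all 32. Dot1l itself had 184 H3K79me3 and 232 H3K79me2 counts, a log2 ratio of -1.47 (-2.63 to -0.47), and stood at -1.06 in WT. Mllt10, the AF10 partner of DOT1L, stood at -1.17 with 1117 and 1146 counts, and Aff4, the scaffold of the super elongation complex, at -1.42 with 677 and 826. Mllt3, the gene of AF9, stood at -0.13 with 175 and 87 counts, and reads from the retroviral fusion cannot be told apart from those of the endogenous gene where the sequences are the same. Aff3 was the only measured gene of the list above 0, at 0.60 (0.26 to 0.95), and stood at -0.05 when scaled to olfactory receptor genes.

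Enzymes of other histone marks had low ratios too. Of 27 genes for H3K4, H3K27 and H3K36 methylation enzymes and demethylases 26 were measured, 11 were lower and 0 higher, with a median of -0.97 (density reference -0.88, pooled -1.07). Jarid2, a partner of Polycomb complex PRC2, stood lowest at -1.54 (-1.87 to -1.22) with 1776 and 2346 counts. Nsd1, an H3K36 methyltransferase gene, stood at -1.48 and the PRC2 enzyme gene Ezh2 at -1.34, whereas its paralog Ezh1 stood at 0.12 (-0.91 to 1.11). Kmt2a, the MLL gene itself, had 683 and 446 counts and a ratio of -0.52.

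Genes of basic functions of growing cells had medians below that of all genes, and these medians lay near or above their density references, with replication and cell cycle genes slightly below theirs. Of 41 splicing and RNA processing genes 40 were measured, 22 were lower and 0 higher (median -1.03, density reference -1.18, pooled -1.09). Among them Mbnl2 stood at -1.28 with 1554 and 1719 counts, the SF3B complex gene Sf3b1 at -1.32 with 619 and 705, and Clk1, a kinase of splicing factors, lowest at -2.60. Of 46 DNA replication and cell cycle genes 30 were measured, 13 lower and 0 higher (median -0.98, density reference -0.88, pooled -0.92), led by E2f2 at -2.75 with 54 and 166 counts. Rb1, the retinoblastoma gene, stood at -1.70 with 559 and 825 counts, and E2f3 at -1.57 with 805 and 1091. Of 39 proteasome subunit genes 19 were measured and 9 were lower (median -1.04, density reference -1.06), with the testis subunit gene Psma8 highest at 0.91. Respiratory chain genes (30 of 83 measured, 10 lower, 1 higher, median -0.69, density reference -1.06, pooled -0.91) and housekeeping genes (16 of 27, 4 lower, median -0.88, density reference -1.06, pooled -0.86) lay above their references. The short ribosomal protein genes were mostly under the minimum: 20 of 83 cytosolic ones were measured, 1 lower and 1 higher, with a median of -0.43, a density reference of -1.18 and a pooled value of -0.81 over all 83. Zinc finger genes named Zfp had 44 lower and 5 higher of 160 measured (median -0.52, density reference -0.63, pooled -0.45).

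**Figure D4:**
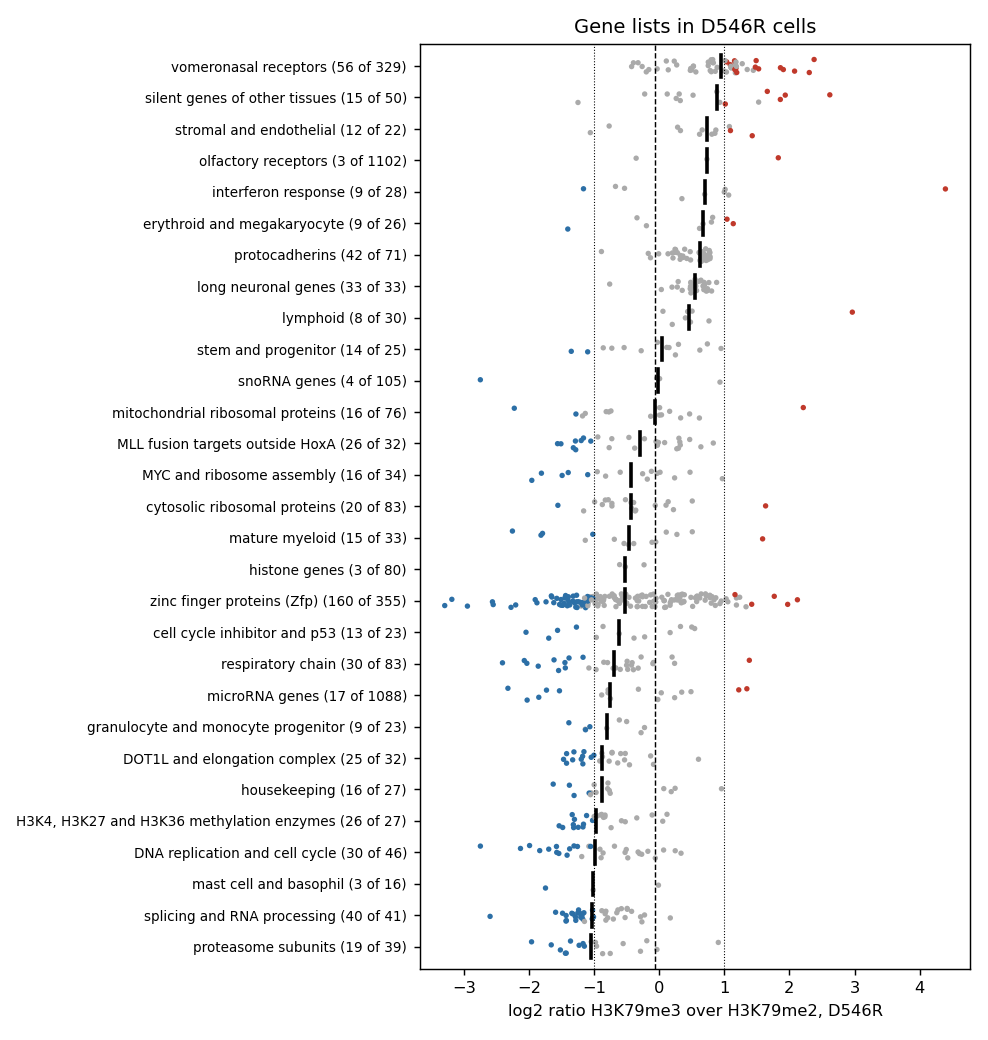
Log2 ratio of H3K79me3 over H3K79me2 in D546R for each measured gene (points; blue 2-fold lower, red 2-fold higher, grey neither) of the lists with 3 or more measured genes, with the measured number of all listed in brackets; thick bars are list medians, the dashed line the median of all genes, and dotted lines a 2-fold difference. Proteasome (-1.04), splicing (-1.03) and mast cell and basophil genes (-1.01, 3 measured) have the lowest medians, and receptor genes of the vomeronasal family highest, at 0.94.

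Lists of silent genes lay at the opposite end. Vomeronasal receptor genes, transcribed in sensory neurons of the nose, had 14 higher and 0 lower of 56 measured (median 0.94, density reference 0.60), and over all 329 the pooled value was 0.66, against 0.72 in WT. Of 50 genes of other tissues 15 were measured, 5 were higher and 0 lower (median 0.88, density reference 0.66, pooled 0.49), among them the heart myosin genes Myh6 (236 and 17 counts, 2.62) and Myh7 (195 and 24, 1.86). The 33 long neuronal genes, all measured, had 0 called in either direction and a median of 0.55 (density reference 0.66), which became -0.10 when scaled to olfactory receptor genes. Their counts were large enough to give narrow intervals: Cntnap2, a neuronal adhesion gene with a region of 2243 kb, stood at 0.88 (0.74 to 1.03) with 14996 and 3703 counts, and Ptprd at 0.48 (0.33 to 0.64) with 11748 and 3822, or at -0.17 by the olfactory scaling. Chl1, another neuronal adhesion gene, stood apart from this list at -0.76 (-0.93 to -0.59) with 7090 and 5467 counts, the most H3K79me2 counts of any gene in D546R. It had 24.4 H3K79me2 counts per kb, against 1.78 for the whole list pooled, and its ratio was 0.12 in WT and 1.05 in D544R. Over all 71 protocadherin genes the 42 measured had 0 called and a median of 0.62 (-0.03 by the olfactory scaling). They share reads, since 22 other regions overlap that of Pcdhga6 alone.

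The labelled cell type was checked on H3K79me2. Over whole lists its density in D546R was 9.47 counts per kb in granulocyte and monocyte progenitor genes (23 genes), 6.46 in stem and progenitor genes (25) and 5.65 in mature myeloid genes (33). In lymphoid genes it was 1.70 (30 genes), in erythroid and megakaryocyte genes 2.34 (26) and in stromal and endothelial genes 2.71 (22), against 1.89 in olfactory receptor genes. In mast cell and basophil genes (16) it was 4.45, closer to the mature myeloid level than to that of olfactory receptor genes. Of the defining markers, the granule enzyme gene Mpo had 102 counts in each mark, and Spi1, the myeloid master regulator gene, had 732 H3K79me3 and 471 H3K79me2 counts. No gene of the progenitor list was at 0 in H3K79me2, but the same held for the lymphoid and the stromal and endothelial lists. The platelet gene Gp9, at 0 in both marks, was the only 1 of the 26 erythroid and megakaryocyte genes at 0 in H3K79me2. Genes at 0 thus did not separate these lists. H3K79me2 is also the denominator of the ratio, so an inverse order is partly built in. That order was not strict: mast cell and basophil genes had the lowest median of these lists, -1.01 (3 measured). Density references were -1.06 for granulocyte and monocyte progenitor, -0.63 for mature myeloid and -0.20 for stem and progenitor genes. They were -0.21 for mast cell and basophil, 0.60 for lymphoid, 0.63 for stromal and endothelial and 0.23 for erythroid and megakaryocyte genes. Of 9 measured granulocyte and monocyte progenitor genes 3 were lower and 0 higher (median -0.81, pooled -0.72), with Fcgr3 at -1.39 and Csf2rb at -1.07. Mature myeloid genes had 4 lower and 1 higher of 15 (median -0.47, pooled -0.52), with Tlr4, the endotoxin receptor, lowest at -2.25 (142 and 309 counts) and Lcn2 highest at 1.59 (201 and 30). Lymphoid genes had 1 higher and 0 lower of 8 (median 0.46, pooled 0.44, and a median of -0.20 by the olfactory scaling). Stromal and endothelial genes had 2 higher and 0 lower of 12 (median 0.73, pooled 0.14), and erythroid and megakaryocyte genes 2 higher and 1 lower of 9 (median 0.67, pooled 0.42). Stem and progenitor genes were split, 2 lower and 0 higher of 14 with a median of 0.04 (-0.61 by the olfactory scaling, -0.15 for the 12 without overlapping regions) and a pooled value of -0.68. Etv6 stood at -1.35 (-1.57 to -1.14) with 4029 and 4677 counts and Fli1 at -1.10, while Prdm16 stood at 0.62 and Tek at 0.74.

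Targets of MLL fusions outside the HoxA cluster were spread over the whole range. Of 32 listed 26 were measured, 8 were lower and 0 higher, and the median was -0.30 (density reference -0.88, pooled -0.77). Of the 26, 13 stood above the median ratio of their own decile. The 8 were Cdk6, Cpeb2, Zeb2, Mbnl1, Runx1, Jmjd1c, Reep3 and Arid2. Cdk6, the cell cycle kinase gene (NM_009873, mm9 chromosome 5, 3342311 to 3522225), had 1832 H3K79me3 and 2461 H3K79me2 counts and the lowest ratio, -1.56 (-1.89 to -1.25). Mbnl1, a splicing regulator gene, had 3893 and 4323 counts and stood at -1.29 (-1.51 to -1.07). Runx1, a transcription factor gene of blood development, stood at -1.28 (-1.55 to -1.02) and the demethylase family gene Jmjd1c at -1.20 (-1.53 to -0.88). All 8 lay in the 3 densest deciles of WT H3K79me2, whose medians lie between -0.88 and -1.18, and their ratios ran from -1.56 (Cdk6) to -1.05 (Arid2).

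The other 8 measured targets in the same dense deciles ran from just above that range to well above 0 in D546R. Arid1b stood at -0.94, Runx2 at -0.77, Lmo2 at -0.73 and Myb at -0.47, all in the densest decile, and the remaining 4 stood higher. Meis1, the homeobox partner of HOXA9 (NM_010789, mm9 chromosome 11, 18778430 to 18918972), lies in the densest decile, where the median is -1.18. It had 1118 H3K79me3 and 480 H3K79me2 counts in D546R and a log2 ratio of 0.08 (-0.40 to 0.56), or -0.57 by the olfactory scaling. In WT it had 5842 and 7372 counts (-0.30, -0.44 to -0.17) and in D544R 4525 and 6154 (-0.75, -0.89 to -0.61). In D546R its level per kb was 1.81 times that of olfactory receptor genes in H3K79me2 and 1.22 times in H3K79me3, and for Mbnl1 these factors were 17.6 and 4.56. Bahcc1, a chromatin reader gene, had 404 and 103 counts and stood at 0.83 (-0.09 to 1.77) in D546R, at -0.78 in WT and -0.75 in D544R, in a decile with a median of -0.88. Its level was 1.01 times that of olfactory receptor genes in H3K79me3 and 0.891 times in H3K79me2. Eya1, a developmental regulator gene, stood at 0.64 (0.03 to 1.25), or -0.02 by the olfactory scaling, and Mef2c, a transcription factor gene, at -0.01 (-0.44 to 0.41), in deciles with medians of -0.88 and -1.06. In these genes H3K79me2 was at 0.915 and 2.00 times the olfactory receptor level. In these 4 genes both marks were thus within 2.00 times the olfactory receptor level in D546R.

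**Figure D5:**
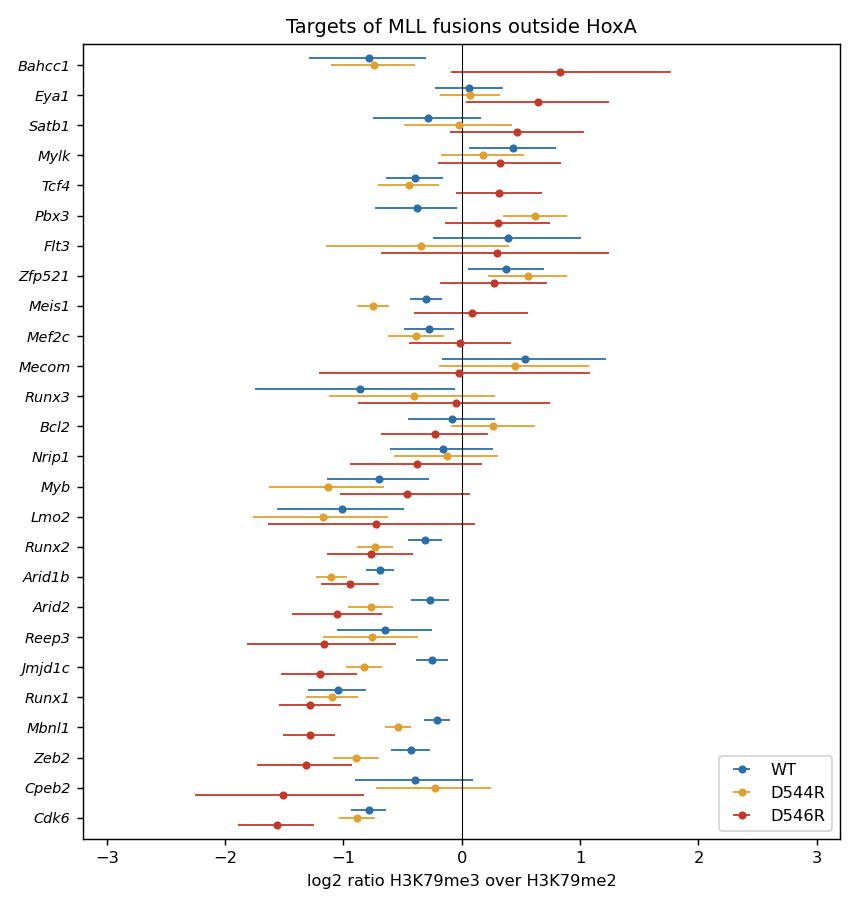
Log2 ratio of H3K79me3 over H3K79me2 in the 3 genotypes for the 26 measured targets of MLL fusions outside HoxA, with fragment intervals (counting error with repeat reads, 1 library per mark). Cdk6 at the bottom stands at -1.56 in D546R and -0.79 in WT, and Bahcc1 at the top at 0.83 and -0.78.

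Of the 26 targets, D546R stood above WT in 10 and below in 16. The interval of the difference, from fragment counts, lay above 0 in 4 (Bahcc1, Satb1, Tcf4 and Pbx3) and below 0 in 7 (Cdk6, Cpeb2, Zeb2, Mbnl1, Jmjd1c, Arid2 and Runx2). Over all 10117 genes this interval lay above 0 at 5.45% and below 0 at 14%. In D546R the 4 targets above had both marks near the olfactory receptor level. H3K79me3 was between 0.896 (Tcf4) and 1.40 times it (Satb1), and H3K79me2 between 0.891 (Bahcc1) and 1.60 times (Satb1). In the 7 below, H3K79me2 was between 3.12 (Runx2) and 17.6 times that level (Mbnl1). Scaling by total counts shifted the difference by 0.23 and gave 7 targets above and 6 below. The largest upward difference was 1.61 (0.63 to 2.60) at Bahcc1. The difference was 0.38 (-0.10 to 0.86) at Meis1, 0.68 (0.14 to 1.22) at Pbx3 and -1.08 (-1.32 to -0.84) at Mbnl1. In the HoxA cluster only Hoxa3 passed the minimum, with 194 and 82 counts and a ratio of 0.10 (-1.16 to 1.30; -0.56 by the olfactory scaling), and 5 other regions overlap it. Hoxa9 had 143 and 35 counts, Hoxa10 had 120 and 26, and Hoxa7 had 33 and 2. Pooled over the 11 HoxA genes, H3K79me3 was at 7.35 and H3K79me2 at 1.95 counts per kb, a log2 ratio of 0.78 (0.11 to 1.44). Reads shared by overlapping regions can enter this sum more than once, so the interval may be too narrow. The olfactory scaling moves this ratio by -0.66 as well. The WT libraries held 13.4 and 17.5 counts per kb (-0.35) and the D544R libraries 13.8 and 17.5 (-0.65). Both marks were lower in D546R there, and H3K79me2 was near the 1.89 counts per kb of olfactory receptor genes.

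Across genes, the D546R ratio went with that of the other genotypes, more closely where counts were high. Over the 9284 genes measured in D546R and WT Pearson's r was 0.60, and over the 1007 with 2000 or more counts in both it was 0.88, with a slope of D546R on WT of 1.34. Against D544R the values were 0.67 (8791 genes) and 0.92 (856 genes). These correlations are descriptions across genes that share length, density and overlapping reads. Of the 9284 genes measured in both D546R and WT, 1853 were lower in D546R and 534 in WT. Those lower in both were 229, which is 12.4% of the former and 42.9% of the latter. Over all genes measured in each genotype, 18.4% were lower in D546R and 5.6% in WT. For higher genes 75 were shared, 12.2% of 613 in D546R and 16.9% of 444 in WT. Over all genes measured in each, 8.19% were higher in D546R and 6.43% in WT. The lower genes of D544R were found among those of D546R at 51.6% (442 of 857), against 18.4% lower over all genes in D546R.

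The balance of the differences between D546R and WT depended on the scaling. At the 4657 genes with 500 or more counts in both pairs, predicted, Mir, Snor and histone names left out, the median difference was -0.24, and its interval lay below 0 at 1019 genes and above 0 at 197. Scaling by total counts brought the median to -0.0026 and the counts to 565 below and 508 above. Scaling to olfactory receptor genes gave -0.32, 1259 and 122. Among the most negative of the named genes were Slc22a3, a transporter of organic cations, at -2.35 (-3.25 to -1.44) and Spopl at -2.20 (-3.11 to -1.28). Spopl had 252 H3K79me3 and 459 H3K79me2 counts in D546R and 689 and 616 in WT. Slc7a11, the cystine transporter gene, stood at -2.04 with 300 H3K79me3 and 493 H3K79me2 counts in D546R. Tsc22d2 differed by -1.60 (-2.11 to -1.08), having 728 and 915 counts in D546R against 6649 and 6213 in WT, so that both marks were lower and H3K79me3 the more so. The most positive were Clmn at 2.00 (1.13 to 2.88), with 957 and 132 counts against 321 and 401, Exph5 at 1.93 (0.87 to 2.99) and Spats2 at 1.78 (0.79 to 2.77). Col18a1, a basement membrane collagen gene, was among the 10 most positive at 1.52 (0.60 to 2.44). By lists, the interval of the difference lay below 0 in 15 and above 0 in 0 of the 40 splicing genes, in 11 and 0 of the 26 genes of other histone methylation enzymes and in 9 and 0 of the 30 replication and cell cycle genes, against 14% and 5.45% of all 10117 genes. By total counts these became 14 and 1, 7 and 0, and 6 and 0, where all genes gave 7.69% below and 11% above. Of the 40 splicing genes 35 lay in the 3 densest deciles, and 21 of the 40 had a difference below the median difference of their own decile. For the methylation enzymes this held for 18 of 26 and for replication and cell cycle genes for 19 of 30. The deciles come from a library that is part of the WT ratio. Among the 33 long neuronal genes the interval lay below 0 in 5 and above 0 in 2, and by total counts in 1 and 16.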

How the data were processed

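ChIP-seq of 2 marks in 3 genotypes gave 6 libraries, 1 per group. The values the authors deposited are raw counts of reads, not normalized. Per the file headers, each gene was counted from 2 kb upstream of its transcription start up to the end of its transcript. The submitters' processing notes name Bowtie, bedtools, DESeq and mm9, without roles or versions. The sources used here do not say whether duplicates were dropped. The extension appeared to lie on the same coordinate side for both strands: 2062 of 2133 neighbouring pairs on opposite strands kept the same end offset (within 1 base). This count does not show which side it is. If the extension is upstream in plus-strand genes, as the headers give it, then in minus-strand genes it lies past the transcript end.

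Scaling used the median ratio of the 2 libraries of a genotype over genes counted in both (prior count 0.5). Regions were taken as end minus start. Fragment intervals are conditional Clopper-Pearson intervals (95%) of counts divided by reads per fragment, which were estimated from 4591 autosomal regions under 5 kb at 0 and are an upper estimate. Differences between genotypes have normal intervals of log fragment counts. A count of 0 allows up to 3 counts. Scripts were tested on simulated data. Software was Python 3.11.15, pandas 2.3.3, scipy 1.17.1 and edgeR 4.0.16 (TMM factors only). RefSeq names matched 23907 genes (99.6%).

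The genes compared and the 32 lists were chosen with earlier results of these data known, so they support nothing independently. Named genes were the 10 lowest and highest past the 2-fold rule, the 12 lowest and highest of 2000 or more counts (predicted, Mir, Snor and histone names left out), the ends of each list, the 10 most different from WT each way, and fixed genes, 148 in all. Other genes were chosen after their values were seen. Alternatives were other scalings, filters, thresholds, intervals and prior counts.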

Additional observations from a re-analysis of the deposited data

Results flagged for a closer look

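Of the genes with 200 or more summed counts in both genotypes, 5 were past the 2-fold rule in opposite directions in D546R and WT, and the difference itself was not tested, since each value comes from 1 library per mark. Slc22a3, a cation transporter gene, had a log2 ratio of H3K79me3 over H3K79me2 of -1.21 in D546R and 1.13 in WT. Pkd2, the polycystin-2 gene, stood at -1.42 and 1.15. The other 3 went the opposite way: the growth factor gene Btc stood at 1.30 in D546R and -1.15 in WT, Svop at 1.07 and -1.01, and 4930419G24Rik at 1.43 and -1.12. No gene was past the rule in opposite directions in D546R and D544R among the 8791 measured in both.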

How the results depend on the processing

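No paired analysis was possible because each group had 1 library, and for the same reason no replicate could be left out. The counts of 829 higher and 1863 lower genes became 1492 and 1134 by total counts, 105 and 3973 with olfactory receptor genes as the reference, and 92 and 687 among the 2654 genes of 1000 or more summed counts. A 1.5-fold threshold gave 1452 higher, and leaving out overlapping regions gave 1090 lower of 6216. Of all calls 30.8% were higher, against 56.8%, 2.57% and 11.8% under the first 3 of these. Under the remaining alternatives, including reads per fragment from olfactory receptor genes, added after seeing the data, both counts stayed within 1.5 times. By total counts, D546R lay above WT at 1114 and below at 778 of the measured genes, against 551 and 1412, and at 508 and 565 of those with 500 or more counts, against 197 and 1019. With the olfactory reference, added after seeing the data, the last pair became 122 and 1259. The order by density and the order of the genotypes kept their direction under every alternative run for them. List medians changed sign as follows. By total counts, mitochondrial ribosomal proteins went to 0.17 and snoRNA genes to 0.22. The snoRNA genes also went to 0.0281 by TMM, 0.00351 by all 6 libraries and 0.0507 by the measured genes alone, and mitochondrial ribosomal proteins to 0.00318 by the last. With the olfactory reference, HoxA went to -0.56, stem and progenitor to -0.61, lymphoid to -0.20, long neuronal to -0.10 and protocadherin genes to -0.0348. At 1000 or more counts, stem and progenitor genes stood at -0.54 and mitochondrial ribosomal proteins at 0.00375 (1 gene). Without a minimum, stem and progenitor genes stood at -0.0780 and interferon genes at -0.0814. Without overlaps, stem and progenitor genes stood at -0.15, p53 and cell cycle inhibitor genes at 0.17 and microRNA genes at 0.42. The cause of these moves was not tested. At up to 18.6 reads per fragment, genes with few H3K79me3 counts rest on few fragments.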

Other observations

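Interferon response genes gave 1 higher and 1 lower of 9 measured (median 0.70, or -0.0814 over all 28 without a minimum) and a pooled log2 ratio of 0.20 (-0.08 to 0.48) over all 28. Ifi44 stood highest at 4.40. Genes of MYC and ribosome assembly had 5 lower and 0 higher of 16 (median -0.43, pooled -0.59), with the helicase gene Ddx21 lowest at -1.96 and Tcof1 highest at 0.97. Among cell cycle inhibitor and p53 pathway genes 4 were lower and 0 higher of 13 (median -0.61, or 0.17 for the 7 without overlapping regions, pooled -0.84), with Trp53 lowest at -2.05 (-3.73 to -0.71). Mitochondrial ribosomal protein genes had 2 lower and 1 higher of 16 (median -0.06, or 0.17 by total counts), while the pooled value over all 76 was -0.70. Of 16 mast cell and basophil genes 3 were measured, with Srgn lowest at -1.75. MicroRNA genes had 5 lower and 2 higher of 17 measured among 1088 listed (median -0.75, or 0.42 for the 4 without overlapping regions). Keratin and HoxB, HoxC and HoxD genes had 2 measured each of 107 and 28, with pooled values of 0.90 and 0.83. Of 105 snoRNA genes 4 were measured (1 lower, median -0.02, or 0.22 by total counts), and of 80 histone genes 3 (0 called, median -0.52). Of the 1102 olfactory receptor genes 3 were measured, and the pooled value over all of them was 0.66 (0.55 to 0.76), close to the 0.57 of WT and 0.75 of D544R.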
